A study of Mus musculus with 9 samples.

Results

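The muscle miRNAs miR-1a-3p, miR-133a-3p, miR-133b-3p and miR-206-3p (in the files mmu-miR-1a-3p, mmu-miR-133a-3p, mmu-miR-133b-3p and mmu-miR-206-3p) were followed in mouse embryos that lacked all or parts of the miR-17~92 cluster. These 4 miRNAs were chosen by name, as the abundant strands of the classical muscle miRNAs, and make up 4 of the 986 mature miRNAs in the data. They take 6 of the 1046 deposited rows, because miR-1a-3p and miR-133a-3p are each listed in a pair of near-equal rows that were counted once. Small RNA was sequenced from embryos of embryonic day 9.5 (E9.5), all labelled female, after heart and tail bud had been cut away. One genotype was wild type, with the whole cluster. In the 4 single mutants, here ΔmiR-17, ΔmiR-18, ΔmiR-19 and ΔmiR-92, 1 miRNA family of the cluster was deleted. ΔmiR-17,18 lacked a pair of families, ΔmiR-17,18,92 kept only the miR-19 family, and the full deletion lacked the whole cluster. Each genotype had 1 library, so no genotype had a replicate, and the sources used here do not give the strain, the zygosity or the number of embryos behind a library. A further library held reads assigned to no genotype and entered no comparison.

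miR-1 and miR-206 belong to a single seed family, made from different genes, and repress many messages that are not part of the muscle programme. miR-133 is made from the same primary transcripts as miR-1 or miR-206 but has another seed, and is known for effects on proliferation and on serum response factor. In the mouse, miR-1 and miR-133a are made in heart and skeletal muscle, whereas miR-206 and miR-133b are known from skeletal muscle and its precursors. Somite myotomes, the first skeletal muscle of the embryo, form at about this stage, and MyoD-family factors and MEF2 are known to drive these genes.

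The mature strands of miR-206-3p and miR-133b-3p are shown because these neighbours carry the different seeds of the group. Sequences were taken from RefSeq (GRCm38.p6), in which 2 of the 4 members matched. Capitals mark the seed, bases 2 to 8 counted from the 5′ end.
miR-206-3p: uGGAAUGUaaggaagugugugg
miR-133b-3p: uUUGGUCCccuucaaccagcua
The hairpins of these miRNAs follow, with the 3p strand, the member measured here, in capitals.
Mir206: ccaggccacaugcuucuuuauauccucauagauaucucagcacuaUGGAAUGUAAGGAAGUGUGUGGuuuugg
Mir133b: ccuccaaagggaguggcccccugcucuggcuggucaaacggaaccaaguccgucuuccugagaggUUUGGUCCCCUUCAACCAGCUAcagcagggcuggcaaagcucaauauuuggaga

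Coordinates below are those of GRCm38, not of mm9, the build named for the deposited table. Mir206 lies at chr1:20679010-20679082 and Mir133b at chr1:20682769-20682887, both on the plus strand, with 3686 bases between them. Both overlap annotated exons of the long noncoding RNA Gm28653 (chr1:20669882-20684298). Mir1a-1 (chr2:180389048-180389124) and Mir133a-2 (chr2:180398379-180398482) lie 9254 bases apart on the plus strand, inside the host transcript Mir1a-1hg (chr2:180385604-180401802). The other copies are Mir1a-2 and Mir133a-1. The copies of a gene give the same mature strand, so that a value of miR-1a-3p or miR-133a-3p is a sum over loci.

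Libraries of the 8 genotypes held 6570756 (ΔmiR-92) to 18486699 reads (ΔmiR-18). Levels are in nRPM, normalized so that the 8 library totals average 1000000. A single read was worth 0.0624 nRPM in the deepest of them and 0.157 nRPM in the wild type. Intervals in brackets are exact 95% intervals that cover counting error only, not the difference between embryos. From 34.7% to 45.2% of the reads came from the top 10 miRNAs of a library.

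miR-1a-3p was the most abundant of the group, miR-133a-3p the next, and miR-206-3p and miR-133b-3p followed. This order held in all 8 libraries. Their means over the 8 genotypes were 3099.3 ± 1217.7 nRPM for miR-1a-3p, 450 ± 155 for miR-133a-3p, 133.5 ± 48.16 for miR-206-3p and 14.63 ± 7.014 for miR-133b-3p (SD, n = 8 libraries of different genotypes). By mean level they ranked 68, 196, 304 and 529 among the 986 miRNAs. Summed, the 4 members held from 2173.5 nRPM in ΔmiR-17 to 5867.1 nRPM in ΔmiR-17,18. In RNA of embryos without heart and tail bud, fewer muscle cells and less of a miRNA per cell cannot be told apart.

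From low to high, miR-1a-3p stood at 1530.5 nRPM in ΔmiR-17, 2209.7 in ΔmiR-19, 2429.6 in ΔmiR-18 and 2483.4 in the wild type. Above these came the full deletion at 2860.2 nRPM, ΔmiR-17,18,92 at 3659.9, ΔmiR-92 at 4620.0 and ΔmiR-17,18 at 5000.7. ΔmiR-17 was lowest, and ΔmiR-17,18 and ΔmiR-92 were the 2 highest, in an order that turned round when libraries were scaled to plain read totals. Between neighbours in this order, only the counting intervals of ΔmiR-18 and the wild type overlapped. The highest library held 3.27 times the lowest, and 2.26 times without ΔmiR-17.

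miR-133a-3p, in the same order, stood at 285.1 nRPM in ΔmiR-19, 312.3 in the full deletion, 385 in ΔmiR-92 and 402.8 in ΔmiR-18. Above these came the wild type at 427.2 nRPM, ΔmiR-17 at 431.2, ΔmiR-17,18,92 at 604.4 and ΔmiR-17,18 at 751.6. ΔmiR-17,18 and ΔmiR-17,18,92 lay above the other 6 libraries under each of the 5 scalings tried. ΔmiR-92, ΔmiR-18, the wild type and ΔmiR-17 each overlapped the next within counting error. ΔmiR-19 was lowest, except when libraries were scaled to reads outside the cluster, when the full deletion was. The range was 2.64-fold.

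miR-206-3p, the member best known as a skeletal muscle miRNA, stood at 75.38 nRPM in ΔmiR-19, 96.48 in ΔmiR-17,18, 105.3 in ΔmiR-92 and 107.7 in the wild type. The full deletion held 123.6 nRPM, ΔmiR-18 155.6, ΔmiR-17 199.7 and ΔmiR-17,18,92 204.6. Highest were ΔmiR-17,18,92 and ΔmiR-17, whose intervals overlapped, and TMM scaling exchanged their order. ΔmiR-17,18, ΔmiR-92 and the wild type each overlapped the next, and ΔmiR-19 was lowest. The range was 2.71-fold.

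miR-133b-3p was rare. It had 36 reads in the wild type (5.636 nRPM) and 77 in ΔmiR-19 (8.095 nRPM), which overlapped within counting error. ΔmiR-17 held 12 nRPM, ΔmiR-92 13.59, ΔmiR-18 14.9, the full deletion 15.74 and ΔmiR-17,18 18.43, each overlapping the next. ΔmiR-17,18,92 stood apart at 28.67 nRPM, from 414 reads. The wild type was lowest and ΔmiR-17,18,92 highest under each of the 5 scalings. With the cluster's own strands left out, 539 miRNAs had a mean of 10 nRPM or more, and the wild type was below every mutant for 75 of them (13.9%). The range was 5.09-fold, 3.54-fold without the wild type and 3.27-fold without ΔmiR-17,18,92.

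**Figure D1:**
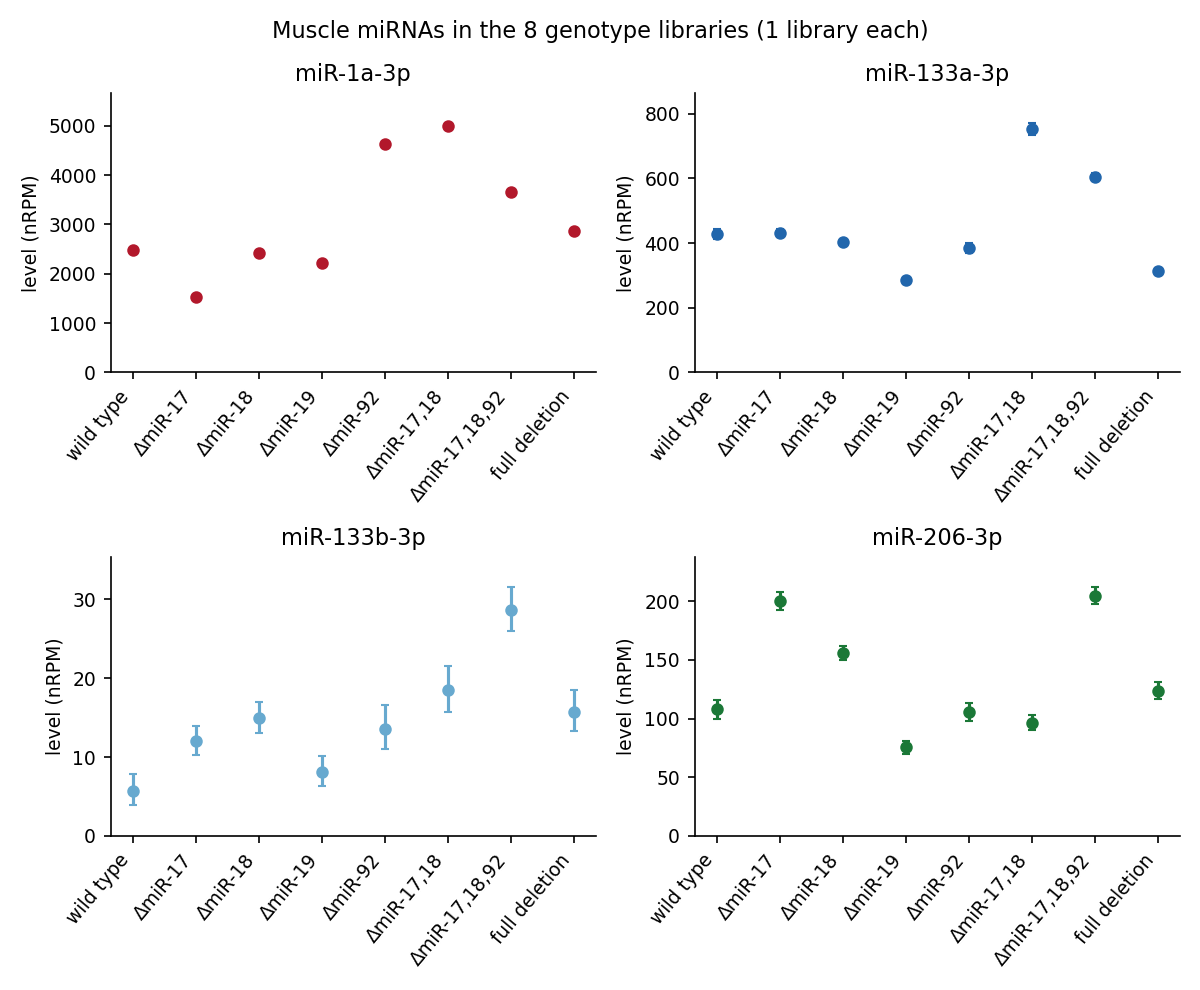
Level in nRPM (vertical axis, from 0, own scale per panel) of miR-1a-3p, miR-133a-3p, miR-133b-3p and miR-206-3p in each genotype library (horizontal axis); points are single libraries and bars exact 95% counting intervals. miR-133a-3p peaks in ΔmiR-17,18 (751.6) and ΔmiR-17,18,92 (604.4), miR-206-3p in ΔmiR-17 (199.7) and ΔmiR-17,18,92 (204.6), and miR-133b-3p has its lowest point in the wild type (5.636).

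Across the 8 libraries the SD of log2(nRPM + 1) was 0.57 for miR-1a-3p, 0.46 for miR-133a-3p, 0.51 for miR-206-3p and 0.66 for miR-133b-3p. The median over the same 539 miRNAs was 0.45, and their median range was 2.57-fold. Of these miRNAs, 67.7% had a lower SD than miR-1a-3p, 50.3% than miR-133a-3p, 60.3% than miR-206-3p and 77.4% than miR-133b-3p. Among these 539, miR-133a-3p thus varied about as much as the middle miRNA, and the other 3 members more. Over the 320 miRNAs that averaged 100 nRPM or more, which leave out miR-133b-3p, the median SD was lower, at 0.41, and the median range 2.35-fold.

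Each mutant library was set against the wild-type library, the reference that the series names, to ask how muscle miRNAs stood when parts of the cluster were missing. miR-133b-3p was higher in all 7 mutants, while the other 3 members were higher in some and lower in others. A ratio here compares single libraries and has no replicate check. All 7 ratios share the wild-type library. A difference of 2-fold or more on the log2(nRPM + 1) scale was counted, which understates changes of low miRNAs.

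miR-133b-3p was 5.09 times the wild type [3.61 to 7.36] in ΔmiR-17,18,92, its largest ratio. It was 3.27 times the wild type [2.27 to 4.83] in ΔmiR-17,18, 2.41 times in ΔmiR-92, 2.64 times in ΔmiR-18 and 2.79 times in the full deletion. These 5 ratios passed the 2-fold mark, and they rest on the 36 wild-type reads. The ratio in ΔmiR-17 was 2.13 [1.48 to 3.15], which fell short of the mark on the log2(nRPM + 1) scale at 0.97. In ΔmiR-19 it was 1.44 [0.955 to 2.2], an interval that holds 1.

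miR-1a-3p passed the mark once, at 2.01 times the wild type [1.98 to 2.05] in ΔmiR-17,18, a log2 ratio of 1.01 that was 0.98 with TMM scaling and 0.96 with scaling to reads outside the cluster. Of the other mutants above 1, ΔmiR-92 held 1.86 times the wild-type level, ΔmiR-17,18,92 1.47 times and the full deletion 1.15 times. Below 1 were ΔmiR-17 at 0.616 [0.604 to 0.629], ΔmiR-19 at 0.89 and ΔmiR-18 at 0.978. The signs in ΔmiR-18, ΔmiR-19 and the full deletion turned with the scaling.

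miR-133a-3p and miR-206-3p passed the mark in no mutant. Ratios of miR-133a-3p ran from 0.667 [0.633 to 0.704] in ΔmiR-19 to 1.76 [1.68 to 1.84] in ΔmiR-17,18, with ΔmiR-17,18,92 at 1.41 and the full deletion at 0.731. Those of miR-206-3p ran from 0.7 [0.629 to 0.778] in ΔmiR-19 to 1.9 [1.75 to 2.07] in ΔmiR-17,18,92, with ΔmiR-17 at 1.85 and ΔmiR-18 at 1.44. With plain read totals the log2 ratios of miR-206-3p were 1.09 in ΔmiR-17 and 1.29 in ΔmiR-17,18,92, past the mark. In ΔmiR-17,18 the neighbours on chromosome 1 parted, miR-206-3p at 0.896 [0.809 to 0.992] and miR-133b-3p at 3.27 times the wild type.

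In ΔmiR-17, 0 of the 4 members were 2-fold or more from the wild type, where 11.1% of the 539 miRNAs were. In ΔmiR-18 it was 1 member against 16.7% of all, in ΔmiR-19 0 against 14.1%, and in ΔmiR-92 1 against 16.7%. ΔmiR-17,18 had 2 members against 23.6% of all, ΔmiR-17,18,92 had 1 against 20.4%, and the full deletion 1 against 18.4%. Over the 320 miRNAs that averaged 100 nRPM or more, which leave out miR-133b-3p, these shares lay between 6.88% in ΔmiR-17 and 24.4% in ΔmiR-17,18. Over the 7 mutants this made 6 of 28 ratios, all 6 higher and 5 of them of miR-133b-3p. Of the 539 miRNAs, 4.64% (ΔmiR-17) to 11.5% (ΔmiR-17,18) were 2-fold or more higher than the wild type. The median log2 ratio of the 4 members was 0.91 in ΔmiR-17,18 and 0.74 in ΔmiR-17,18,92, beside -0.01 and 0.02 over all 539 miRNAs. It was -0.34 in ΔmiR-19, 0.20 in the full deletion, 0.25 in ΔmiR-18, 0.43 in ΔmiR-92 and 0.45 in ΔmiR-17, where the medians of all lay between -0.02 and 0.04.

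**Figure D2:**
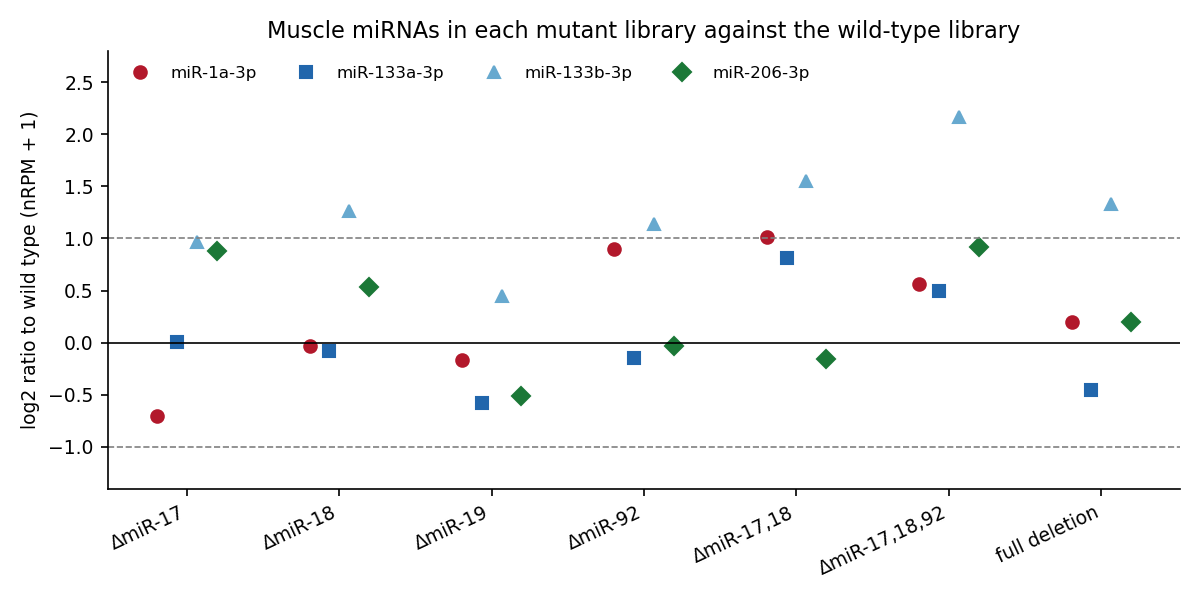
Log2 ratio of each mutant library to the wild-type library (vertical axis, on nRPM + 1) for the 4 muscle miRNAs, by mutant (horizontal axis); each symbol is a ratio of single libraries and dashed lines mark 2-fold. The miR-133b-3p triangles lie above 0 in all 7 mutants and reach 2.16 in ΔmiR-17,18,92, while the other symbols lie on both sides of 0.

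An additive model over the 8 libraries gave the only test the design allows. It fits 1 term for the deletion of each family, so that genotypes sharing a deletion stand in for replicates, and leaves 3 residual degrees of freedom. limma called none of the 16 member and family pairs at an adjusted p of 0.05. Of 551 miRNAs it called 0.726% for loss of miR-17 and the same share for miR-19, and 0.363% each for loss of miR-18 and miR-92. Every one of these calls was a decrease. The 551 include the cluster's own strands, which the deletions remove, so these shares are not a background free of the deleted miRNAs. At an unadjusted p of 0.05 limma, edgeR and DESeq2 each called 0 of the 16 as well. Over all 551 miRNAs, cluster strands included, limma called 3.09% at that level for loss of miR-17 and 4.54% for loss of miR-18. For loss of miR-19 it was 3.81% and for loss of miR-92 1.81%, so that few or none of 16 is close to these shares. With 1 library left out at a time, 5 of 128 member estimates passed an unadjusted p of 0.05 in limma, and none after adjustment. Over all miRNAs in these fits, the share at that level ran from 1.63% to 11.3% by term. Without ΔmiR-17,18 1 member passed for loss of miR-17 and 1 for loss of miR-92, where 7.3% and 11.3% of all did.

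miR-133a-3p came nearest to a difference, for loss of miR-19. There it differed by -0.68 ± 0.32 (log2, deleted minus intact, SE), with an interval from -1.43 to 0.07 (limma adjusted p = 0.953). That estimate was -0.40 without the full deletion and -0.99 without ΔmiR-19, and without ΔmiR-17 or without ΔmiR-18 its interval ran from -1.59 to -0.02. Also for loss of miR-19 the estimates were -0.54 ± 0.40 for miR-206-3p, -0.36 ± 0.43 for miR-1a-3p and -0.37 ± 0.46 for miR-133b-3p. The median estimate for this family over all 551 miRNAs was -0.01. All 4 member estimates for it lay below 0, but they rest on the same libraries and are not 4 separate results. With 1 library left out that of miR-133b-3p was 0.15 (full deletion), that of miR-1a-3p -0.02 (ΔmiR-92) or -0.07 (full deletion), and that of miR-206-3p lay between -0.82 (ΔmiR-92) and -0.34 (ΔmiR-17 or ΔmiR-18).

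For loss of miR-92 miR-1a-3p had an estimate of 0.53 ± 0.40, with an interval from -0.40 to 1.47 (limma adjusted p = 0.99). Without ΔmiR-17,18 the estimate was 1.0 with an interval from 0.42 to 1.59 (limma adjusted p = 0.22). In that fit 11.3% of all miRNAs passed the unadjusted level for loss of miR-92, beside 1.81% with every library kept. An interval clear of 0 was thus not particular to miR-1a-3p there. Without ΔmiR-92 the estimate of miR-1a-3p was -0.14. For loss of miR-18 that of miR-133b-3p was 0.64 ± 0.46, from -0.42 to 1.70 (limma adjusted p = 0.988). For loss of miR-17 the members lay between -0.25 ± 0.43 for miR-1a-3p and 0.40 ± 0.40 for miR-206-3p (limma adjusted p = 0.996). The 95% intervals of all 16 estimates held 0. Of them, 13 also held a 2-fold difference in 1 direction or both, so a difference of that size was not excluded there.

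**Figure D3:**
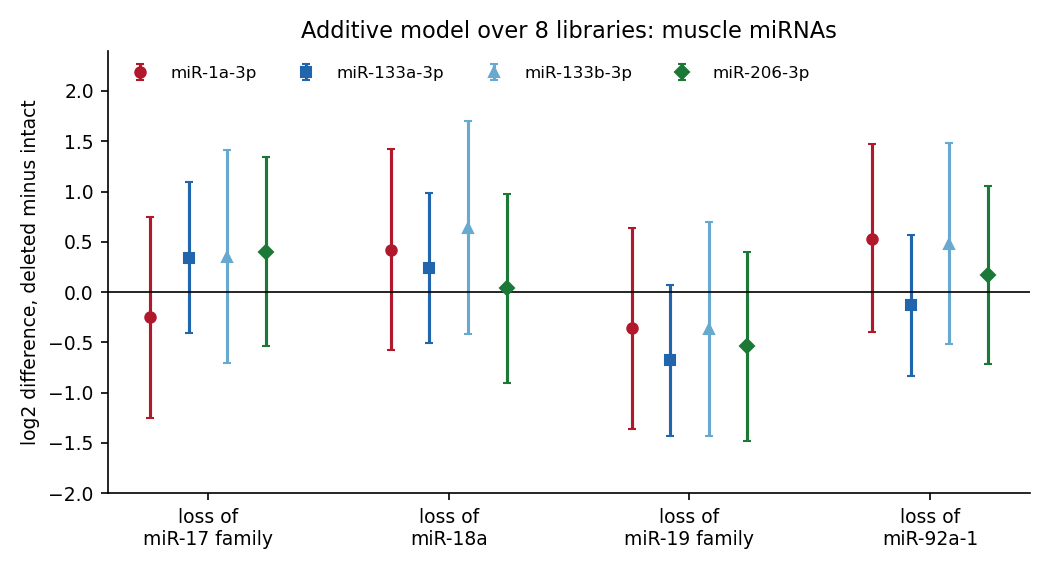
Estimates of the additive limma model (vertical axis, log2 difference between libraries with the family deleted and intact) for each deleted family (horizontal axis) and each muscle miRNA; bars are 95% intervals over 8 libraries. Every bar crosses 0, and the bar of miR-133a-3p for loss of the miR-19 family comes nearest to clearing it, ending at 0.07.

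Ratios between members do not depend on how the libraries were scaled. miR-1a-3p and miR-206-3p, of a single seed family, kept the least constant ratio of the 6 pairs, with 7.66 reads of miR-1a-3p for each of miR-206-3p in ΔmiR-17 [7.36 to 7.98] and 51.8 in ΔmiR-17,18 [48.4 to 55.6]. Between these lay ΔmiR-18 at 15.6, ΔmiR-17,18,92 at 17.9, the wild type and the full deletion at 23.1 each, ΔmiR-19 at 29.3 and ΔmiR-92 at 43.9. Put as a share, miR-206-3p gave 11.5% of the reads of the pair in ΔmiR-17 and 1.89% in ΔmiR-17,18, beside 4.16% in the wild type.

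The SD of log2 of that ratio, taken on nRPM + 1 as for all pairs here, was 0.87, and 0.64 without ΔmiR-17. For miR-1a-3p and miR-133a-3p, which share primary transcripts, it was 0.52, with ratios from 3.55 in ΔmiR-17 to 12 in ΔmiR-92. For miR-133b-3p and miR-206-3p, neighbours on chromosome 1, it was 0.59, with ratios from 0.0523 in the wild type to 0.191 in ΔmiR-17,18. The other pairs had SDs of 0.57 (miR-133a-3p with miR-133b-3p and with miR-206-3p) and 0.63 (miR-1a-3p with miR-133b-3p). Over 51040 pairs of 320 miRNAs that averaged 100 nRPM or more, the median was 0.64. On this scale 5 of the 6 pairs lay below that median and miR-1a-3p with miR-206-3p lay above it. The added 1 nRPM narrows differences of so low a miRNA as miR-133b-3p. The side on which miR-1a-3p with miR-133b-3p falls, at 0.63, is thus not settled. miR-133b-3p, with a mean of 14.63 nRPM, is not among the 320, so for its pairs this median is not a like measure.

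miR-133b-3p held 1.3% [0.914 to 1.8] of the reads of both miR-133 forms in the wild type. The share was 2.39% for ΔmiR-17,18, 2.71% for ΔmiR-17, 2.76% for ΔmiR-19, 3.41% for ΔmiR-92 and 3.57% for ΔmiR-18. It was 4.53% in ΔmiR-17,18,92 and 4.8% [4.07 to 5.61] in the full deletion. The mature forms are near-identical, and the sources used here do not say how reads that fit both were counted, so this split is uncertain.

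Partner strands of the same hairpins were mostly rare. miR-206-5p had 2 reads in ΔmiR-17 and 0 in the other 7 genotype libraries, where a count of 0 allows up to 3 reads, 0.187 to 0.47 nRPM by library. miR-133b-5p had 0 reads in the wild type, ΔmiR-19 and ΔmiR-92 and at most 53 (full deletion, 5.56 nRPM), beside 150 reads of miR-133b-3p there. miR-1a-1-5p had 13 reads in ΔmiR-18, 8 in ΔmiR-92 and 0 elsewhere. miR-1a-2-5p ran from 1.111 nRPM in ΔmiR-17 to 8.126 in ΔmiR-17,18, the same lowest and highest libraries as miR-1a-3p. The rows of miR-1b-5p and miR-1b-3p held nearly the same reads as miR-1a-3p and miR-1a-2-5p, from 1530.5 to 5002.4 nRPM and from 1.111 to 8.126. The Mir1b hairpin is annotated on the strand opposite Mir1a-2, and the sources used here do not say whether strand was used in counting, so these reads cannot be told apart.

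miR-133a-5p was the exception, with 41.89 nRPM in ΔmiR-17,18, 57.93 in ΔmiR-92, 65.04 in the full deletion and 81.87 in the wild type. ΔmiR-17,18,92 held 98.39 nRPM, ΔmiR-17 110.8, ΔmiR-18 133.7 and ΔmiR-19 160.4. ΔmiR-19 was highest for this strand and lowest for miR-133a-3p, and ΔmiR-17,18 was lowest for this strand and highest for miR-133a-3p. The 3p strand outnumbered the 5p strand by 1.78 to 1 [1.67 to 1.89] in ΔmiR-19 and by 3.01 in ΔmiR-18. The wild type gave 5.22, the full deletion 4.8 and ΔmiR-17 3.89. Highest were 6.14 in ΔmiR-17,18,92, 6.65 in ΔmiR-92 and 17.9 [16.1 to 20] in ΔmiR-17,18. The SD of log2 of this ratio, taken on nRPM + 1, was 0.96. The median over 169 hairpins with both strands was 0.69, and 29 hairpins had a higher SD than miR-133a.

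**Figure D4:**
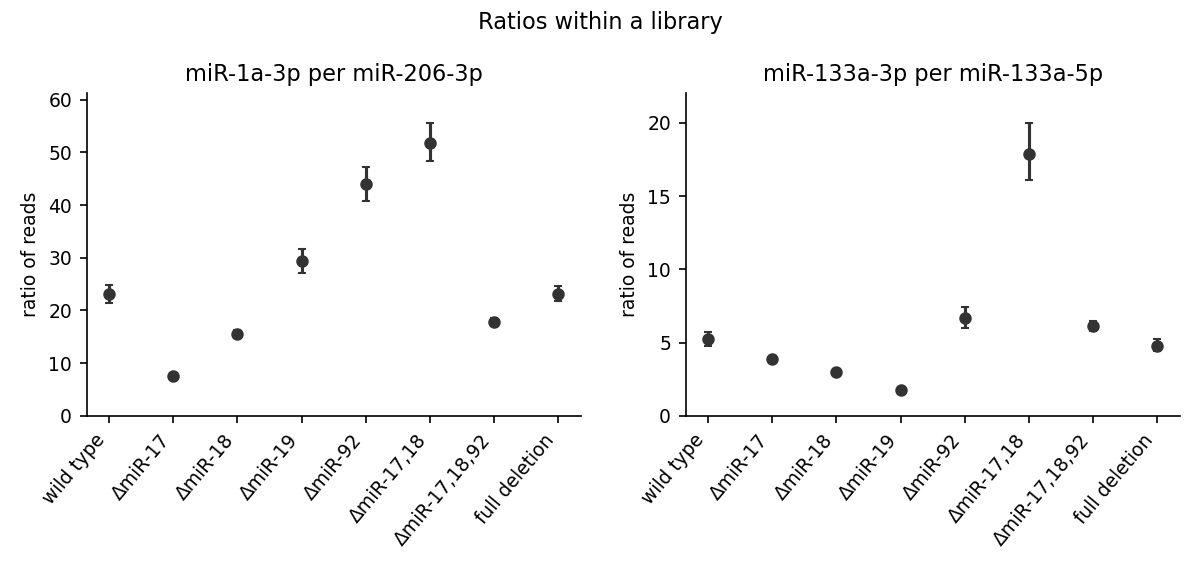
Ratios of reads within a library (vertical axes, linear from 0) by genotype (horizontal axis): miR-1a-3p per miR-206-3p on the left and miR-133a-3p per miR-133a-5p on the right, with exact 95% counting intervals. Both ratios are highest in ΔmiR-17,18 (51.8 and 17.9), and the lowest are in ΔmiR-17 (7.66) and ΔmiR-19 (1.78).

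The miRNAs with the most similar profile to each member were picked out. Likeness was the SD over the 8 libraries of the log2 ratio to the member, taken on nRPM + 1. Candidates averaged 100 nRPM or more, and likeness is a description with libraries and depth shared. The nearest 5 of 327 to 329 candidates are close by selection. Nearest to miR-1a-3p were miR-376c-3p (SD 0.13), miR-15a-5p (0.29), miR-483-5p (0.32), miR-298-5p (0.34) and miR-30b-5p (0.38), while miR-133a-3p came in place 51 and miR-206-3p in place 233 of 327. Nearest to miR-133a-3p were miR-485-3p (0.29), miR-181d-5p (0.31), miR-30b-5p (0.31), miR-16-1-3p (0.32) and miR-214-3p (0.34), with miR-1a-3p in place 70 and miR-206-3p in place 119 of 328. For miR-206-3p they were miR-324-3p (0.28), miR-331-3p (0.29), miR-22-3p (0.30), miR-181a-5p (0.32) and miR-341-3p (0.34), with miR-133a-3p in place 85 and miR-1a-3p in place 269 of 328. For miR-133b-3p they were miR-214-3p (0.35), miR-3071-3p (0.40), miR-136-5p (0.41), miR-301b-3p (0.44) and miR-24-3p (0.44), with miR-133a-3p in place 39, miR-206-3p in place 45 and miR-1a-3p in place 60 of 329. The medians over all candidates lay between 0.64 and 0.78.

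The heart had been cut away, so miRNAs made from introns of myosin genes, known from heart, were read in the same libraries. Mir208a lies in an intron of Myh6, Mir208b in one of Myh7 and Mir499 in one of Myh7b, and their abundant strands are shown because miR-208a-3p and miR-208b-3p share a seed (capitals), from which that of miR-499-5p differs.
miR-208a-3p: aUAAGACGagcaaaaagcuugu
miR-208b-3p: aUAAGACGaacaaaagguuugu
miR-499-5p: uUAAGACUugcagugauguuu
miR-208a-3p and miR-208b-3p differ at 3 positions outside the seed, counted from the 5′ end (G10A, A16G and C18U, miR-208a-3p first).

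miR-208a-3p was lowest in the wild type, at 6.262 nRPM, followed by ΔmiR-17 at 24.66 and ΔmiR-19 at 28.38. The full deletion held 32.42 nRPM, ΔmiR-18 49.83, ΔmiR-92 51.64, ΔmiR-17,18,92 158.8 and ΔmiR-17,18 175.4. The same 2 libraries were thus highest as for miR-133a-3p and miR-133b-3p, a pattern noticed after the values were seen and shared by 15 of the 539 miRNAs (2.78%). The SD of log2(nRPM + 1) of miR-208a-3p, 1.49, was higher than that of 99.4% of the miRNAs.

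miR-499-5p stood at 10.33 nRPM in the wild type, and at 18.59 in ΔmiR-17. The full deletion held 22.77 nRPM, ΔmiR-92 31.75, ΔmiR-18 33.86, ΔmiR-17,18,92 43.83, ΔmiR-19 52.04 and ΔmiR-17,18 60.31. The wild type was lowest for miR-208a-3p and miR-499-5p, as for miR-133b-3p. miR-208b-3p ran otherwise, from 8.885 nRPM in ΔmiR-17 to 28.43 in the full deletion, with 24.58 in the wild type. miR-208a-5p ran from 2.203 nRPM in the full deletion to 14.26 in ΔmiR-17,18,92.

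All 6 miRNAs of this list were found, and their sum ran from 47.75 nRPM in the wild type to 263.3 in ΔmiR-17,18. miR-208b-5p had 0 reads in 5 genotype libraries and miR-499-3p in 6. Of the 3 that averaged 10 nRPM or more, 2 were 2-fold or more above the wild type in every mutant but ΔmiR-17, where 1 was above and 1 below it. Of all 539 miRNAs, 4.64% (ΔmiR-17) to 11.5% (ΔmiR-17,18) were that far above it. limma called none of these 3 for any family, nor at an unadjusted p of 0.05, where it called 1.81% to 4.54% of all 551 miRNAs. Their part in the levels of miR-1a-3p, miR-133a-3p and miR-133b-3p was not tested.

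**Figure D5:**
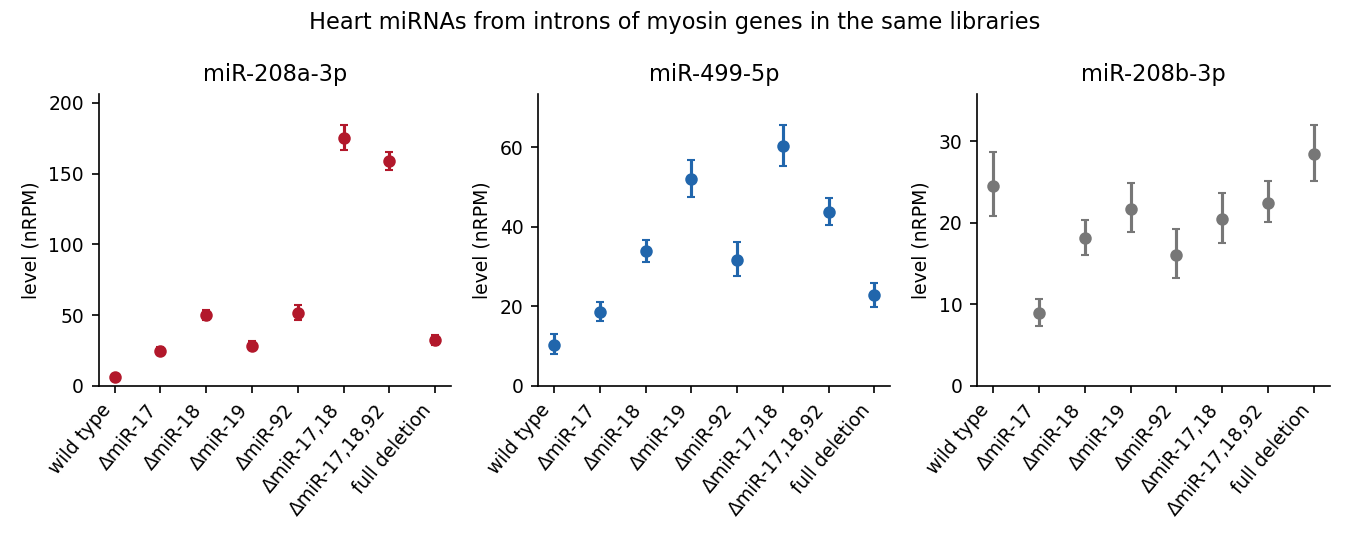
Level in nRPM (vertical axis, from 0, own scale per panel) of miR-208a-3p, miR-499-5p and miR-208b-3p in each genotype library (horizontal axis), with exact 95% counting intervals. miR-208a-3p is highest in ΔmiR-17,18 (175.4) and ΔmiR-17,18,92 (158.8), whereas miR-208b-3p in the wild type (24.58) lies among the higher points.

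Among 16 miRNAs described in myoblast growth or differentiation, limma called 0 for any family, with 2 at an unadjusted p of 0.05 for loss of miR-18, beside 4.54% of all 551 miRNAs, and 1 for loss of miR-92, beside 1.81%. The most abundant were miR-26a-5p, from 5027.8 nRPM in the wild type to 7629.7 in ΔmiR-17,18, and miR-181a-5p, from 3090.6 in ΔmiR-19 to 12690.4 in ΔmiR-17,18,92. Of the 16, 5 were 2-fold or more above the wild type in each of ΔmiR-18, ΔmiR-17,18 and ΔmiR-17,18,92, where 8.91%, 11.5% and 11.3% of the 539 miRNAs were. ΔmiR-17 had 1 beside 4.64% of all, ΔmiR-19 1 beside 4.82%, ΔmiR-92 1 beside 8.72% and the full deletion 2 beside 8.72%.

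Markers of other tissues were summed per genotype library. The 4 smooth muscle miRNAs, led by miR-143-3p (mean 13339.5 nRPM) and miR-145-5p (1206.0), ran from 10100.7 nRPM in the full deletion to 18192.9 in ΔmiR-19. The 5 erythroid miRNAs, led by miR-486-3p (1032.2) and miR-486-5p (983.5), ran from 1732.6 in ΔmiR-17,18,92 to 3360.5 in ΔmiR-19. The 2 endothelial strands, miR-126-3p (9494.2) and miR-126-5p (2960.8), ran from 7366.8 in ΔmiR-17,18,92 to 17548.9 in ΔmiR-17,18. The 4 neural miRNAs, led by miR-9-5p (2103.4) and miR-124-3p (1199.2), ran from 1951.0 in ΔmiR-92 to 5557.4 in ΔmiR-17. The 5 epithelial miRNAs, led by miR-141-3p (2379.2) and miR-200c-3p (2257.6), ran from 7740.9 in ΔmiR-17,18 to 12531.1 in the full deletion. The 5 of the pluripotency-associated miR-302 cluster, led by miR-302b-3p (2672.6) and miR-302d-3p (1505.4), ran from 4967.5 in ΔmiR-17,18,92 to 8585.8 in ΔmiR-17,18. The 6 mesenchymal miRNAs, led by miR-199a-3p (6719.4) and miR-199b-3p (6682.4), ran from 10421.0 in the full deletion to 25378.7 in ΔmiR-17,18,92. These 2 leading rows were near-equal in every library (6739.1 and 6736.0 nRPM in the wild type). Those of miR-486-5p and miR-486-3p were close as well (1186.6 and 1244.8 nRPM in the wild type). The mesenchymal and erythroid sums may thus count the same reads more than once. limma called 0 of these lists' miRNAs for any family, and 0 at an unadjusted p of 0.05, where the share of all miRNAs was 1.81% to 4.54%. Their part in the levels of the muscle miRNAs was not tested.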

How the data were processed

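Trizol RNA went into a published small RNA library protocol, per the labels' protocols. The submitters' processing notes name mm9, featureCounts of Subread 1.4.2, STAR 2.2.0 and SAMtools 0.1.19, with no settings. The deposited signal values are reads divided by a size factor, and 100% came out as whole reads within 0.001. Rows of 1 accession within 10% were counted once, and values were multiplied by 0.1159 to give nRPM.

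limma 3.58.1 (trend, log2(nRPM + 1), 1 term per deleted family, Benjamini-Hochberg adjustment, mean of 10 nRPM or more) was run in R 4.3.3. It was tested on simulated data with changes larger than any member estimate here, so smaller changes were not covered. edgeR 4.0.16 and DESeq2 1.42.0 were run on the recovered read counts of the deposited table. The background of ratios to the wild type used means of 10 nRPM or more outside the cluster, not the planned 100, so that it holds miR-133b-3p.

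Named were the 4 members, their partner strands, the heart list, 5 nearest miRNAs per member and the 2 most abundant of each other list. The members and lists were chosen with earlier results of these data known. Alternatives were other scalings, pseudocounts, filters, row choices and tests, and leaving out each library.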

Additional observations from a re-analysis of the deposited data

Results flagged for a closer look

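The library of reads assigned to no genotype took no part in the comparisons. It held 3 of the 4 muscle miRNAs above their wild-type level. In the mutant libraries, 48.4% (ΔmiR-18) to 52.1% (full deletion) of all miRNAs lay above the wild type. The like share was not taken for the library without a genotype, so 3 of 4 is not shown to be unusual there. miR-133b-3p stood at 126.6 nRPM there, from 360 reads, beside 5.636 nRPM in the wild type and 28.67 in ΔmiR-17,18,92, the highest genotype library. That is 4.42 times the highest genotype library. A ratio at least as high was found for 2 of 539 miRNAs (0.371%), miR-133b-3p itself counted, while 51 (9.46%) lay above every genotype library. It gave 16.3% [14.8 to 18] of the reads of both miR-133 forms. miR-133a-3p stood at 648.1 nRPM, beside 427.2 in the wild type and 751.6 in the highest genotype library. miR-206-3p stood at 176.9 nRPM, beside 107.7 in the wild type and 204.6 in the highest genotype library. miR-1a-3p, at 1958.0 nRPM, lay below the wild type.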

How the results depend on the processing

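No paired analysis was possible because each genotype has 1 library. No member was called for any family under the 19 alternatives of the additive model; miR-133b-3p was not tested with a minimum of 100 nRPM, and the lowest adjusted p was 0.22 (limma, miR-1a-3p, loss of miR-92, without ΔmiR-17,18). With plain read totals, which moved the median log2 ratio of all miRNAs by up to 0.37, members 2-fold or more from the wild type numbered 2 each in ΔmiR-92, ΔmiR-17 and ΔmiR-17,18,92. With TMM it was 1 in ΔmiR-17 and 1 in ΔmiR-17,18, with totals outside the cluster 1 in ΔmiR-17,18, and with a pseudocount of 0.5 nRPM 1 in ΔmiR-17. With a pseudocount of 10 nRPM the full deletion had 0, ΔmiR-92 0, ΔmiR-18 0 and ΔmiR-17,18 1. The cause was not tested. Of 28 member ratios, 22 kept their sign under all settings. Plain totals turned the model estimate of miR-133a-3p for miR-92 to 0.06 and of miR-206-3p for miR-18 to -0.08.

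Leaving out each library in turn, estimates that changed sign ranged for miR-1a-3p from -1.08 to 0.70 (miR-17), -0.41 to 1.37 (miR-18) and -0.14 to 1.0 (miR-92). For miR-133a-3p they ranged from -0.12 to 0.86 (miR-17), -0.22 to 0.76 (miR-18) and -0.32 to 0.05 (miR-92). For miR-133b-3p the range was -0.96 to 0.15 (miR-19). For miR-206-3p they were -0.41 to 1.11 (miR-17), -0.76 to 0.75 (miR-18) and -0.23 to 0.72 (miR-92). The SD of the log2 ratio of miR-133a-3p to miR-206-3p fell to 0.34 without ΔmiR-17,18. Depth limits mainly miR-133b-3p.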
